A study of Mus musculus with 18 samples.

Results

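The cell cycle genes described here are 48 mouse genes that were taken by their symbols from a table of 35655 genes. They comprise 2 D cyclins, 14 genes of DNA replication, 13 mitotic cyclins, kinases and regulators of the anaphase-promoting complex (APC/C), 17 genes of the chromosome, spindle and cytokinesis, and Hmgb2 with Stmn1. The values come from 18 libraries sequenced by MACE, a method that counts transcripts by their 3′ ends, made from carotid artery sections that had been cut out by laser so as to contain the outer elastic lamina and the neointima, the tissue that forms inside the injured vessel. The mice were male, wild type (WT) and of the strain C57/BL6, were 11 weeks old at surgery and were fed chow, and the left carotid was injured with a wire, with the right one of the animal named as the control. Day 0, labelled pre-injury, has 4 libraries, and days 7, 14, 21 and 28 after injury have 4, 3, 4 and 3. The study calls the samples pooled, and neither the number of mice in each library nor whether the day 0 vessels are the right carotids of injured mice is stated in the sources used here, so p-values measure only the spread between these libraries. Libraries held 440675 to 878310 counts, with a median of 659166, and 3 counts corresponded to 3.55 to 6.98 CPM, the count scaled to the library's total.

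Dividing cells pass through the cell cycle in order. D cyclins with the kinases Cdk4 and Cdk6 respond to growth signals and release E2F transcription factors from the retinoblastoma protein, replication genes then copy the DNA, and mitotic cyclins with Cdk1, checkpoint kinases and the APC/C carry the cell through chromosome segregation and division. Medial smooth muscle cells of an uninjured artery rarely divide, and injury of the vessel wall is known to bring them and recruited leukocytes into the cycle. Each library holds RNA of all cells in the dissected sections, so fewer cells of a type and less RNA per cell cannot be told apart.

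Replication and mitosis genes are known to carry different promoter motifs, and 4 promoters of each kind are shown because their capitals mark those motifs. RefSeq promoters were matched for 38 of the 48 genes, and each sequence runs 5′ to 3′ from 120 bases before to 30 bases after the start of the gene, placed on GRCm39. Capitals mark 3 motifs, each searched on both strands. The CHR, or cell cycle genes homology region, was searched as TTTGAA. The box named CCAAT was searched by those letters. The E2F motif was searched as TTGGCGC, in a form with the letters TTCGCGC and in a form with the letters TTCCCGC. On the reverse strand the CCAAT box reads ATTGG and can then overlap the first E2F form, and the E2F forms can overlap each other. Ube2c is at chr2:164611729-164611878 on the plus strand, Cdc20 at chr4:118294511-118294660 on the minus strand, Top2a at chr11:98914986-98915135 on the minus strand and Racgap1 at chr15:99549508-99549657 on the minus strand.
Ube2c: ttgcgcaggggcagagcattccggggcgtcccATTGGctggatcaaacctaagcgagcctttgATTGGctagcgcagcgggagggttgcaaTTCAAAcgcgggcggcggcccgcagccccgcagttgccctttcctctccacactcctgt
Cdc20: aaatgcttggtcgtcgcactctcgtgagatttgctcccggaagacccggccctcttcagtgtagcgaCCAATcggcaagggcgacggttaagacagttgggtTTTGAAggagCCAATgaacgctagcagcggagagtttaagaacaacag
Top2a: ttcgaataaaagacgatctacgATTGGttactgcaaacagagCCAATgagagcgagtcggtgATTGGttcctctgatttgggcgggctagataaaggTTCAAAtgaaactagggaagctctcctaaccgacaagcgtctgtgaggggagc
Racgap1: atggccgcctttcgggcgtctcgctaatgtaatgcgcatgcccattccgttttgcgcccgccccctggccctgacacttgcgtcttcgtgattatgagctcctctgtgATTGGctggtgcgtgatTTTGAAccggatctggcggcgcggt
These mitosis promoters each hold a CHR near the start and at least 1 CCAAT box. The replication promoters below were taken from chr1:20890507-20890656 on the minus strand for Mcm3, chr9:65797485-65797634 on the plus strand for Pclaf, chr7:102090782-102090931 on the plus strand for Rrm1 and chr1:128287413-128287562 on the minus strand for Mcm6.
Mcm3: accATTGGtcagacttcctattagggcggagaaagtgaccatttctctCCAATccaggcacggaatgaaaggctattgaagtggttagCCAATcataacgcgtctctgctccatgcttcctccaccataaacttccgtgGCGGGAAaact
Pclaf: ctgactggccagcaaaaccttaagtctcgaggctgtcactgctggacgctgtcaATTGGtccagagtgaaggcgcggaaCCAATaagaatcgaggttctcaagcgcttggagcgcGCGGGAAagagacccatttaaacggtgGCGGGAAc
Rrm1: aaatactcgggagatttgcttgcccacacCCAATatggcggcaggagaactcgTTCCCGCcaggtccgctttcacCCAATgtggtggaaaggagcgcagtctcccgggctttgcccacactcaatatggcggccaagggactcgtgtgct
Mcm6: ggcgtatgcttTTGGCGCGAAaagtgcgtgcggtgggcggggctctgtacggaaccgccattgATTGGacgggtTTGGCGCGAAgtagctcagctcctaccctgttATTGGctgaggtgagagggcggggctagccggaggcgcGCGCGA
These replication promoters each hold an E2F motif, and none holds a CHR in the printed stretch. The capitals at the very end of Mcm6 are part of an E2F motif that the end of the printed stretch cuts off. These 8 were chosen after their sequences and values were seen.

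In the full windows of 300 bases, from 250 before to 50 after the start, the CHR was found in 19 of the 25 matched mitosis genes (76.0%) and in 1 of the 12 matched replication genes, Mcm2 (8.33%). Of all 27025 genes with a promoter, 20.2% held it. The E2F motif showed the other order, with 16.0% of the mitosis genes, 58.3% of the replication genes and 9.2% of all genes. The CCAAT box was held by 88.0% of the mitosis genes, 75.0% of the replication genes and 41.1% of all genes. These matches are descriptions of letters and do not show binding. No promoter was matched for 10 genes, which are Gmnn, Mcm4, Ccna2, Aurkb, Stmn1, Smc4, Ccnd2, Kif20a, Tpx2 and Ccnd1.

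**Figure D1:**
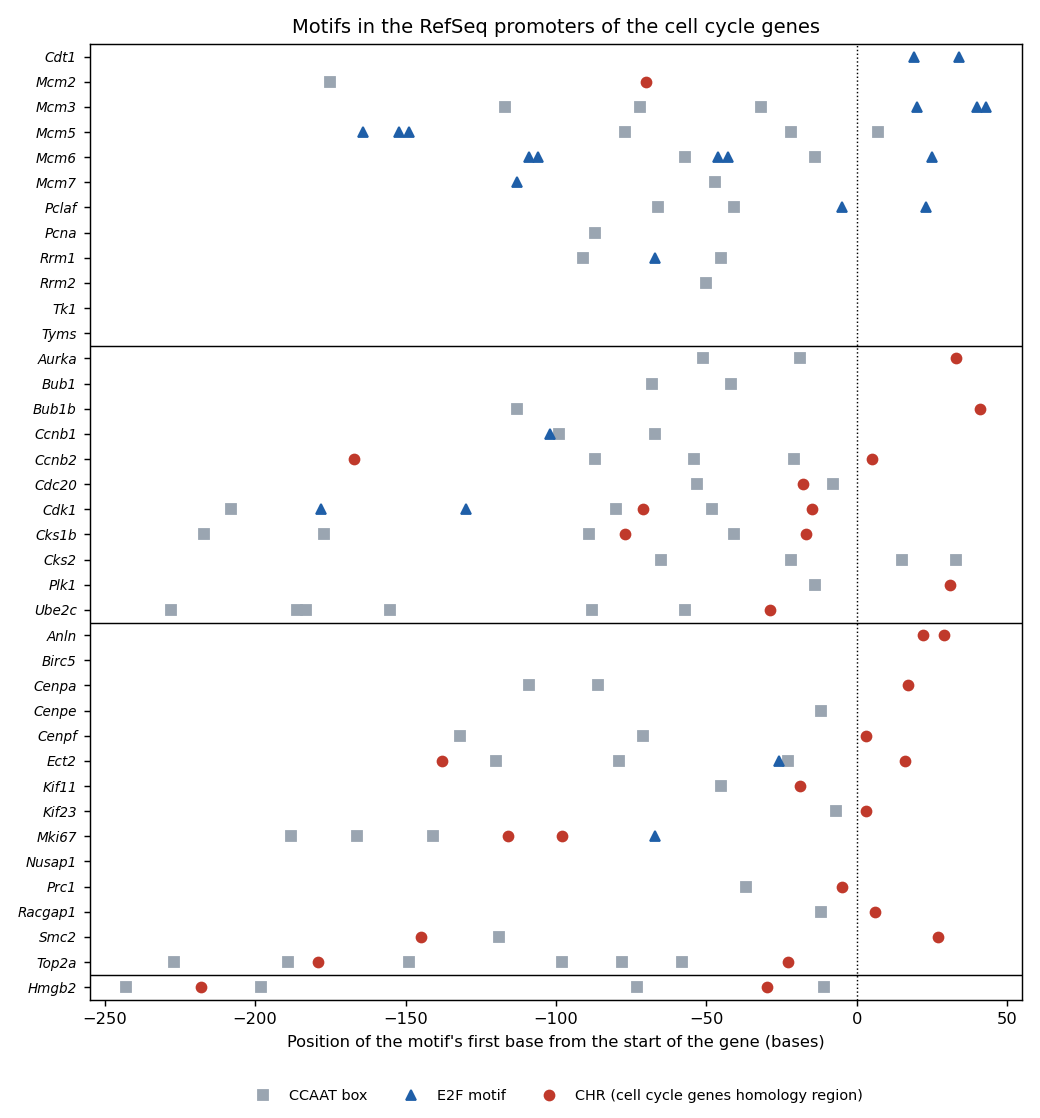
Positions of motifs in the RefSeq promoters of the 38 matched genes, in bases from the start of the gene (dotted line at 0), with 1 row per gene (the first promoter where a gene has several) and black lines between the role groups from replication at the top to Hmgb2 at the bottom. CHR motifs (red circles) lie mainly in the mitosis genes, 19 of 25, and E2F motifs (blue triangles) mainly in the replication genes, 7 of 12, while CCAAT boxes (grey squares) occur in both.

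The cell cycle genes stood highest on day 7. In 46 of the 48 genes (95.8%) the mean level was highest on that day, against 28.1% of all 10312 genes tested, and the exceptions were Ccnd2, highest on day 28, and Anln, highest on day 0. These shares are not alike, as 42 of the 48 passed the filter on low counts, 19 of them only with the day 7 libraries. Genes that passed in that way were likely to be highest on day 7. Both exceptions were among the 23 that passed without those libraries. Later counts over all 48 genes carry the same limit. Detection also differed over the whole table, where libraries held counts for 10792 to 12154 genes on day 0 and 12254 to 13091 on day 7. On day 28 they held counts for 10674 to 12350 genes. The share of all genes with a count in every library of a day was not computed. On day 7, 44 of the 48 genes had a count in every library, while on day 0 only 9 did. There were 5 genes, Aurka, Bub1, Cenpe, Nusap1 and Racgap1, without a count in any day 0 library, and 14 without a count in any day 28 library. The heat map of all members shows this as a block of higher levels over the day 7 libraries.

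**Figure D2:**
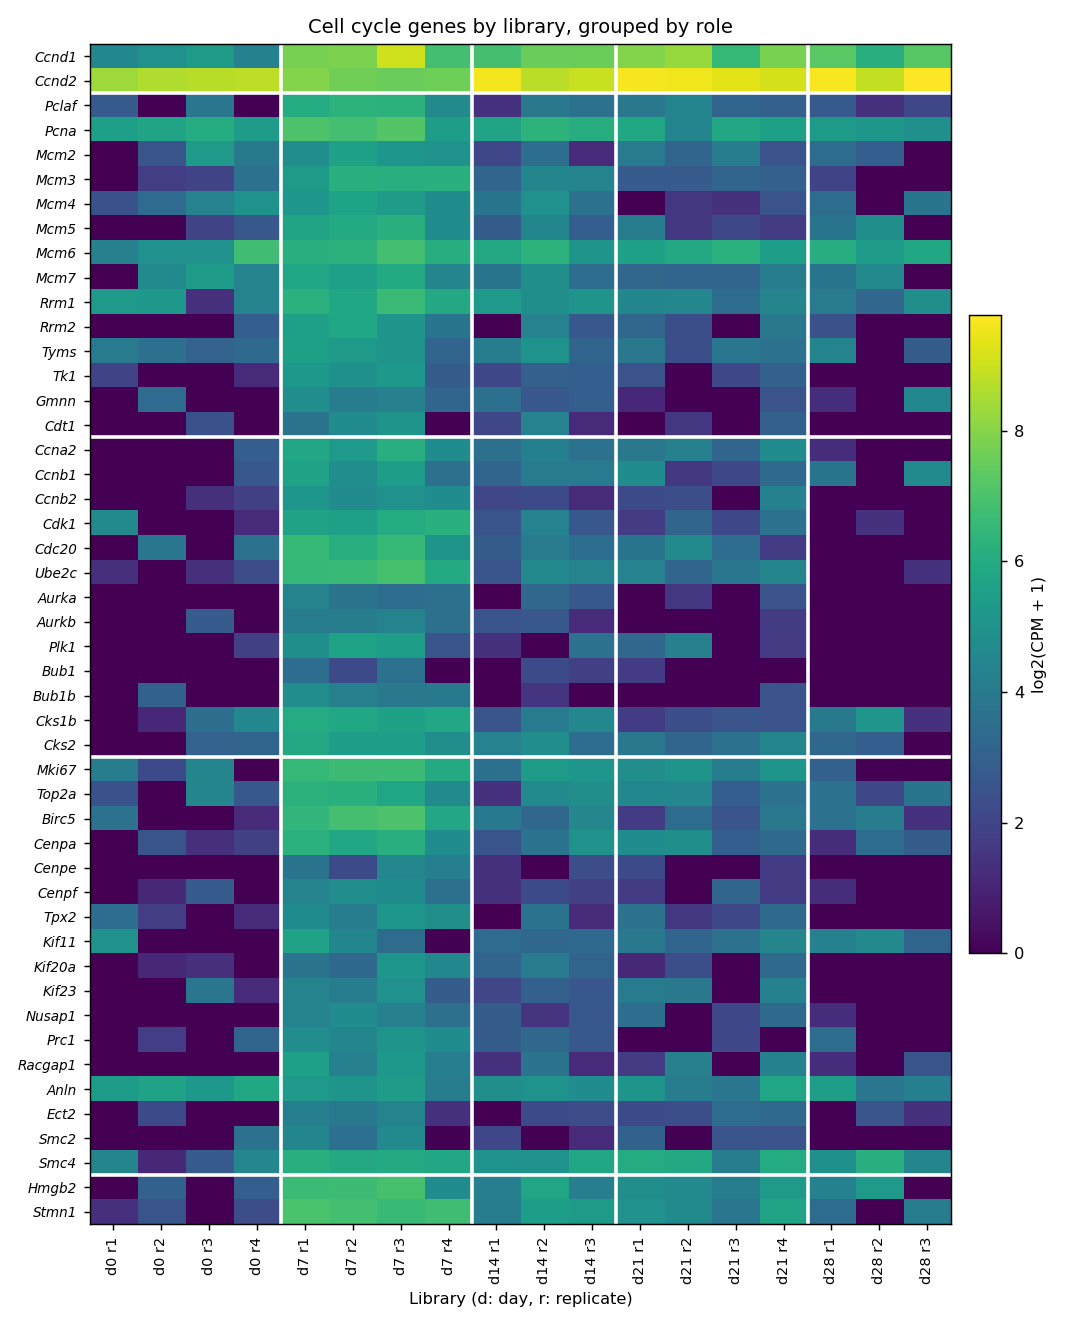
Level of each of the 48 cell cycle genes as log2(CPM + 1), colour from dark (0) to yellow, in each of the 18 libraries (columns, by day and replicate), with white lines between the days and between the role groups. The 4 day 7 columns are lighter than the others in most lines from Pclaf downwards, with Anln an exception, and Ccnd2 in the second line runs the other way.

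Between day 7 and day 0, 29 of the 48 genes rose and 1, Ccnd2, fell (edgeR quasi-likelihood test, Benjamini-Hochberg adjustment over all genes tested). Of all genes tested, 11.3% rose and 8.53% fell in that comparison, 19.8% together. Every day 7 library lay above every day 0 library in 33 of the 48 genes and below in 1, against 13.6% and 9.71% of all genes tested. The filter on low counts left 42 genes for the test, and 19 of these passed it only with the day 7 libraries. The 19 were Pclaf, Mcm3, Rrm2, Tk1, Gmnn, Cdt1, Ccnb2, Cdk1, Cdc20, Aurkb, Plk1, Birc5, Cenpf, Tpx2, Kif20a, Kif23, Nusap1, Prc1 and Racgap1. For them the filter favoured a high day 7 level, also in fits that left out 1 library. Of the 23 that passed without the day 7 libraries, 15 rose and 1 fell. Their median log2 fold change was 2.69, where the median over all genes tested was 0.071. The genes not tested, Aurka, Bub1, Bub1b, Cenpe, Ect2 and Smc2, all had a higher mean on day 7 than on day 0. A fit without any filter, which tested all 48, called 32 higher and 1 lower. Leaving out any single library gave 23 to 33 calls, and a fit with the number on the labels as a block, which 3 day 0 and 3 day 21 libraries share, gave 17. All libraries with an unshared number formed 1 block in that fit. Day 7 thus met day 0 directly only through day 0 replicate 1. A call lost with this block can come from fewer day 0 libraries and does not show an effect of pairing.

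Levels of smooth muscle and macrophage markers, and of some neutrophil markers, also differed between day 0 and day 7. The summed level of 12 contractile smooth muscle markers was 42120 to 47260 CPM on day 0 and 2111 to 8590 CPM on day 7, and all 12 fell. Of 16 macrophage markers, 15 were tested and 14 rose, with a sum of 184 to 549 CPM on day 0, when Mpeg1 was at 0, and 4977 to 7256 CPM on day 7. Of 10 neutrophil markers 4 were tested and 3 rose, the sum being 0 to 15.5 CPM on day 0 and 195 to 702 CPM on day 7, with Ly6g, Camp, Ngp and Ltf at 0 on day 7. The 10 T cell markers summed to 1.31 to 51.4 and 27.9 to 57 CPM on these days, which overlapped, and none passed the filter for the test. Of the 10 endothelial markers 4 rose and 1 fell on day 7, and of the 10 fibroblast markers 1 rose and 5 fell. The endothelial markers summed to 672 to 1124 CPM on day 0 and 611 to 2003 CPM on day 7, and the fibroblast markers to 2837 to 4237 and 1220 to 2267 CPM. Which cells held the cell cycle transcripts was not tested.

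Ccnd1 and Ccnd2 moved in opposite directions on day 7. Ccnd1 encodes cyclin D1, and its level was 22.3, 29.9, 38.8 and 18.4 CPM in the 4 day 0 libraries and 217, 232, 536 and 115 CPM in the 4 day 7 libraries. All day 7 libraries lay above all day 0 libraries, and replicate 3 stood highest. Ccnd1 rose from 27.3 ± 8.99 CPM (SD, n = 4) to 275 ± 182 CPM (SD, n = 4) (log2 fold change 3.32, SE 0.44, adjusted p = 5.59e-06). Ccnd2, which encodes cyclin D2, was at 322, 388, 426 and 446 CPM on day 0 and 249, 203, 187 and 195 CPM on day 7. Here every day 7 library lay below every day 0 library. Ccnd2 fell from 396 ± 54.9 CPM (SD, n = 4) to 209 ± 27.8 CPM (SD, n = 4) (log2 fold change -0.92, SE 0.24, adjusted p = 0.00646), and with the label number as a block the call was lost (adjusted p = 0.107, the highest over its alternatives, which ran down to 0.00143).

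After day 7 Ccnd1 stayed above its day 0 level. It was at 118, 185 and 192 CPM on day 14, 251, 309, 92.1 and 226 CPM on day 21 and 154, 71.1 and 150.2 CPM on day 28. No library of these days overlapped with day 0. Against day 0, Ccnd1 was higher on day 14 (log2 fold change 2.59, SE 0.45, adjusted p = 0.000679), day 21 (log2 fold change 3.00, SE 0.44, adjusted p = 8.74e-05) and day 28 (log2 fold change 2.19, SE 0.45, adjusted p = 0.0133). The day 14 call was lost with the label number as a block (adjusted p = 0.0701, with alternatives ranging down to 1.26e-11). On day 28 it was the only one of the 48 genes called, and the call was lost without day 0 replicate 4 (adjusted p = 0.0578) or day 28 replicate 3 and with the label number as a block, its alternatives ranging from 1.72e-07 to 0.25. Against day 7, Ccnd1 was not called on day 28 (log2 fold change -1.13, SE 0.43, adjusted p = 0.0803).

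Ccnd2 instead stood above its day 0 level at the later days. Its values were 779, 431 and 497 CPM on day 14, 797, 755, 666 and 565 CPM on day 21 and 826, 471 and 874 CPM on day 28. All libraries of days 21 and 28 lay above day 0, and on day 14 only replicate 2 lay within the day 0 range. Ccnd2 rose on day 21 against day 0 (log2 fold change 0.82, SE 0.23, adjusted p = 0.0284), a call that was lost in 6 of the 18 fits that left out 1 library (adjusted p up to 0.0849, without day 21 replicate 1). On day 14 and day 28 it was not called against day 0 (adjusted p = 0.276 and 0.0876). Against day 7, Ccnd2 rose on day 14 (log2 fold change 1.45, adjusted p = 0.00369), day 21 (1.74, 7.77e-05) and day 28 (1.79, 6.1e-05), and it was the only member to do so. The day 14 call was lost without day 14 replicate 1 (adjusted p = 0.0576).

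In each library, the counts of Ccnd1 were also set against those of both D cyclins. Ccnd1 made up 6.49, 7.14, 8.33 and 3.95% of these counts on day 0 and 46.6, 53.3, 74.1 and 37% on day 7. On day 14 the share was 13.2, 30.1 and 27.8%, on day 21 23.9, 29, 12.1 and 28.5% and on day 28 15.7, 13.1 and 14.7%. Day 7 did not overlap with any other day, and day 28 lay above day 0. The exact (Clopper-Pearson) 95% interval of the lowest day 7 share was 30.1% to 44.2% and that of the highest day 0 share 5.52% to 12%, which cover counting error only. The exons of Ccnd1 overlap those of LTO1 on the opposite strand, and the use of strand in the counting is not given in the sources used here.

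**Figure D3:**
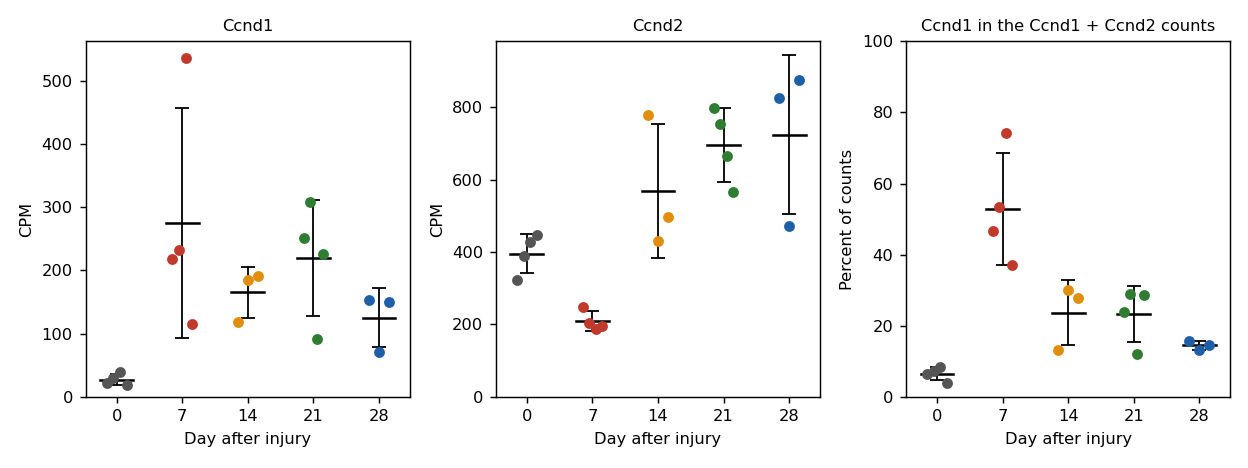
Ccnd1 and Ccnd2 in CPM, and Ccnd1 as a percentage of the counts of both, by day after injury, with 1 point per library, the mean (line) and the SD (bar). Ccnd1 was higher on day 7, at 115 to 536 CPM, than on day 0, at 18.4 to 38.8 CPM, whereas Ccnd2 was lowest on day 7.

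Of the 14 replication genes, 7 rose on day 7, none fell and 7 were not called, where 11.3% of all genes tested rose. Of the 8 that passed the filter without the day 7 libraries, 3 rose. Their summed level was 128, 178, 227 and 268 CPM on day 0 and 714, 766, 859 and 402 CPM on day 7. The ranges did not overlap, and day 7 replicate 4 stood lowest of its group. The means were 200.1 ± 60.4 CPM (SD, n = 4) and 685 ± 198 CPM (SD, n = 4).

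The 4 replication genes with the highest mean level showed smaller differences, and 2 of them were not called. Pcna encodes the sliding clamp that holds DNA polymerase on its template, and it was at 44.7, 51.4, 65.6 and 40.7 CPM on day 0 and 132, 113, 142 and 42 CPM on day 7. Replicates 1, 2 and 3 of day 7 lay above day 0 and replicate 4 did not. Pcna rose (log2 fold change 1.08, SE 0.36, adjusted p = 0.0377), but the call was lost in 9 of the 18 fits that left out 1 library, among them those without day 7 replicate 1, 2 or 3 (adjusted p up to 0.157, without replicate 3). Rrm1, the large subunit of ribonucleotide reductase, was at 37.2, 35.9, 1.49 and 19.7 CPM on day 0 and 74.8, 55.7, 99.7 and 58.1 CPM on day 7. Its groups did not overlap, and day 0 replicate 3 stood far below the others. Rrm1 rose (log2 fold change 1.60, SE 0.53, adjusted p = 0.0355), and 6 of the 18 fits that left out 1 library lost the call (adjusted p up to 0.131, without day 7 replicate 3), as did the label number as a block (0.23). Mcm6, a subunit of the replicative helicase, was at 17.9, 29.9, 29.8 and 108 CPM on day 0 and 73, 77.3, 114 and 66.2 CPM on day 7. Replicate 4 of day 0 lay within the day 7 range, and Mcm6 was not called (log2 fold change 0.82, SE 0.43, adjusted p = 0.208). The helicase subunit Mcm7 was at 0, 23.9, 41.7 and 19.7 CPM on day 0 and 53.4, 44.9, 61.8 and 21 CPM on day 7, the groups overlapped, and it was not called either (log2 fold change 1.07, SE 0.76, adjusted p = 0.378).

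The larger differences lay in replication genes with few counts on day 0. Of these, Mcm3, Pclaf, Rrm2 and Tk1 passed the filter only with the day 7 libraries, which favours a large difference. Mcm3, a further helicase subunit, was at 0, 2.39, 2.98 and 11.8 CPM on day 0 and 39.2, 73.7, 69.8 and 72.7 CPM on day 7. It rose without overlap (log2 fold change 3.81, SE 0.74, adjusted p = 0.000538). Mcm5 was at 0 to 5.25 CPM on day 0 and 25.8 to 71.8 CPM on day 7 and rose as well (log2 fold change 4.55, SE 1.00, adjusted p = 0.00181). Pclaf, which binds the clamp Pcna, went from 0 to 13.4 to 24.2 to 79.1 CPM (log2 fold change 3.66, SE 0.85, adjusted p = 0.00261). Rrm2, the small subunit of ribonucleotide reductase, went from 0 to 6.56 to 12.9 to 55.7 CPM (log2 fold change 4.28, SE 1.23, adjusted p = 0.0144). For Tk1, thymidine kinase, with 3 counts in all day 0 libraries together, the ratio of day 7 to day 0 was 25.4 (95% counting interval 8.27 to 127). Mcm3, Mcm5, Pclaf and Rrm2 rose in each of the 18 fits that left out 1 library and Tk1 in the 15 in which it was tested, all but those without day 7 replicate 1, 2 or 3, and with the label number as a block Pclaf, Rrm2 and Tk1 were not called (adjusted p = 0.0658, 0.0504 and 0.0791).

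Among the uncalled replication genes, Mcm2 (adjusted p = 0.346), Mcm4 (0.298), Tyms (0.175), Gmnn (0.133) and Cdt1 (0.0636) all had higher means on day 7. Tyms encodes thymidylate synthase, Cdt1 loads the helicase on DNA and geminin, from Gmnn, restrains Cdt1. Cdt1 had counts in 1 of 4 day 0 libraries and in 3 of 4 day 7 libraries, a ratio of 16.2 (95% counting interval 5.13 to 82.1).

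**Figure D4:**
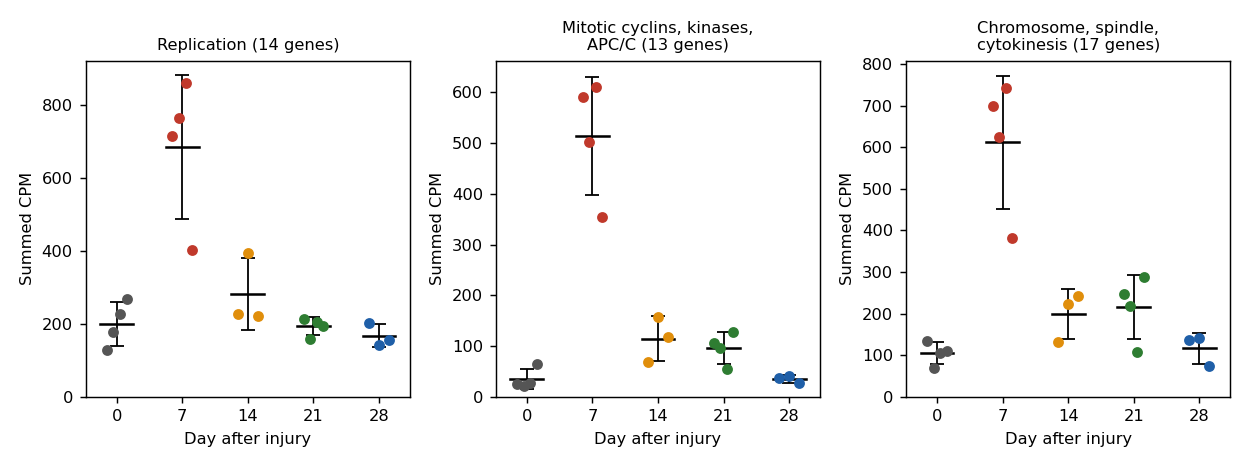
Summed CPM of the 14 replication genes, the 13 mitotic cyclins, kinases and APC/C genes and the 17 chromosome, spindle and cytokinesis genes by day after injury, with 1 point per library, the mean (line) and the SD (bar). All 3 sums were highest on day 7, and on day 28 the second group was at 27.2 to 41.4 CPM, inside its day 0 range of 21.5 to 64.3 CPM.

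The mitotic cyclins, kinases and APC/C genes were low on day 0 and high on day 7. Of the 13 genes 10 were tested and 9 rose, where 11.3% of all genes tested rose. Aurkb alone among the 10 was not called. Only 5 of the 10 passed the filter without the day 7 libraries, and all 5 rose. Their sum was 25.3, 21.5, 26.8 and 64.3 CPM on day 0 and 591, 503, 610 and 354 CPM on day 7. The lowest day 7 library was well above the highest day 0 library, replicate 4, which had counts in 9 of these genes where the others had counts in 2 to 5. The means were 34.5 ± 20.0 CPM (SD, n = 4) and 514 ± 117 CPM (SD, n = 4). In 12 of the 13 genes every day 7 library lay above every day 0 library, against 13.6% of all genes tested.

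Ube2c, the ubiquitin-conjugating enzyme that works with the APC/C, was at 1.49, 0, 1.49 and 3.94 CPM on day 0 and 89, 97, 119.6 and 61.4 CPM on day 7. It rose without overlap (log2 fold change 5.59, SE 0.70, adjusted p = 3.17e-06), with the smallest p of the 48 genes in this comparison. Cdc20, an activator of the APC/C, was at 0, 13.2, 0 and 11.8 CPM on day 0 and 92.6, 70.1, 93.7 and 32.3 CPM on day 7. Replicates 1 and 3 of day 0 had no count, and replicate 4 was the lowest on day 7. Cdc20 rose (log2 fold change 3.44, SE 0.81, adjusted p = 0.00342), and the label number as a block lost the call (0.0937). The Cdk-binding protein gene Cks2 was at 0, 0, 7.45 and 7.87 CPM on day 0 and 58.8, 43.1, 41.9 and 27.4 CPM on day 7 and rose as well (log2 fold change 3.43, SE 0.85, adjusted p = 0.00476). Its relative Cks1b was at 0, 1.20, 10.4 and 22.3 CPM on day 0 and 64.1, 57.5, 47.8 and 54.9 CPM on day 7, without overlap (log2 fold change 2.69, SE 0.80, adjusted p = 0.0175). The Cks1b call was lost without day 0 replicate 2 (adjusted p = 0.0551) or day 7 replicate 1. The value of Cks1b is uncertain, since the near-identical gene Cks1brt held 198 counts in all libraries beside the 220 of Cks1b.

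The cyclins behaved alike on day 7. Ccna2, which encodes cyclin A2, went from 0 to 6.56 to 25.8 to 69.8 CPM (log2 fold change 4.65, SE 0.90, adjusted p = 0.000495), and had a day 0 count only in replicate 4. Ccnb1, which encodes cyclin B1, went from 0 to 5.25 to 11.3 to 48.1 CPM (log2 fold change 4.40, SE 1.12, adjusted p = 0.00598), again with day 0 counts only in replicate 4. For Ccnb2 (cyclin B2) the ratio of day 7 to day 0 was 28 (95% counting interval 9.17 to 139) at adjusted p = 0.0049. The value of Ccnb2 is uncertain, as its pseudogene Ccnb2-ps held 80 counts in all libraries and Ccnb2 85, although on day 7 the pseudogene held 7 and Ccnb2 64.

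Among the mitotic kinases, Cdk1 was at 23.8, 0, 0 and 1.31 CPM on day 0 and 48.1, 44.9, 63.8 and 72.7 CPM on day 7. Most of the day 0 count came from replicate 1. Cdk1 rose (log2 fold change 3.19, SE 0.93, adjusted p = 0.0154), and the call was lost without day 0 replicate 4 (adjusted p = 0.0515) and with the label number as a block (0.189), its alternatives ranging down to 0.000112. Plk1, the polo-like kinase, had 2 counts in all day 0 libraries, both in replicate 4, and its ratio of day 7 to day 0 was 45.3 (95% counting interval 12.1 to 382) at adjusted p = 0.00699 and 0.163 with the label number as a block. Aurkb, the aurora kinase of the chromosomal passenger complex, stood at 0 to 5.96 CPM on day 0 and 11.3 to 19.9 CPM on day 7, without overlap, and was not called (log2 fold change 3.31, SE 1.19, adjusted p = 0.0521). The other aurora kinase, Aurka, was not counted on day 0 and stood at 9.97 to 19.6 CPM on day 7, at least 3.25-fold higher when day 0 is set to 3 counts per library. The checkpoint kinase genes Bub1 and Bub1b were at 0 to 12 and 13.9 to 26.7 CPM on day 7. On day 0, Bub1 had no count and Bub1b counts only in replicate 2. Aurka, Bub1 and Bub1b were too low to be tested.

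On day 7 against day 0, 14 of the 17 chromosome, spindle and cytokinesis genes were tested and 10 rose, beside 11.3% of all tested. Of the 6 that passed the filter without the day 7 libraries, 4 rose. Their sum was 134, 69.3, 106 and 109 CPM on day 0 and 699.8, 624, 742 and 383 CPM on day 7. The groups did not overlap, and replicate 4 was again the lowest on day 7. The means were 104 ± 26.6 CPM (SD, n = 4) and 612 ± 160.5 CPM (SD, n = 4).

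Mki67, the gene of the proliferation marker Ki-67, was at 16.4, 3.59, 20.9 and 0 CPM on day 0 and 89, 102, 102 and 61.4 CPM on day 7. It was detected in 3 of the 4 day 0 libraries and rose without overlap (log2 fold change 3.13, SE 0.69, adjusted p = 0.00188), though not with the label number as a block (0.0693). Birc5 encodes survivin, which belongs to the chromosomal passenger complex, and was at 11.9, 0, 0 and 1.31 CPM on day 0 and 85.5, 119, 129.6 and 56.5 CPM on day 7. Replicates 2 and 3 of day 0 had no count. Birc5 rose (log2 fold change 4.86, SE 0.81, adjusted p = 1e-04). Smc4, a subunit of condensin, was at 20.8, 1.20, 5.96 and 22.3 CPM on day 0 and 69.4, 59.3, 61.8 and 56.5 CPM on day 7 and rose as well (log2 fold change 2.29, SE 0.57, adjusted p = 0.00515), though not with that block (0.0868). Anln, which encodes the actin-binding protein anillin of the cleavage furrow, was at 38.7, 49, 35.8 and 55.1 CPM on day 0 and 37.4, 32.4, 39.9 and 16.1 CPM on day 7. The groups overlapped, Anln was not called (log2 fold change -0.51, SE 0.47, adjusted p = 0.528), and it was the only member of this group whose mean was lower on day 7.

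Further genes of this group rose from levels near the limit of detection. Of these, Cenpa and Top2a passed the filter without the day 7 libraries, and Racgap1, Nusap1, Kif20a, Cenpf and Prc1 only with them. Racgap1, which acts with Kif23 at the spindle midzone, was not counted on day 0 and stood at 44.5, 18, 35.9 and 17.8 CPM on day 7, at least 7.05-fold higher against 3 counts per library (adjusted p = 0.00159). Nusap1, a microtubule-binding spindle protein gene, was not counted on day 0 and stood at 11.3 to 25.2 CPM on day 7, at least 4.49-fold higher (adjusted p = 0.00164). Cenpa, the histone variant gene of the centromere, went from 0 to 4.78 to 25.8 to 74.8 CPM (log2 fold change 4.49, SE 0.81, adjusted p = 0.000241). Top2a, the gene of topoisomerase II alpha, went from 0 to 20.9 to 24.2 to 76.6 CPM (log2 fold change 2.89, SE 0.80, adjusted p = 0.0106, and 0.122 with the label number as a block). The kinesin gene Kif20a, with 2 counts on day 0, had a ratio of 28.2 (95% counting interval 7.36 to 241) at adjusted p = 0.00695, and 0.123 with that block. The kinetochore gene Cenpf (adjusted p = 0.0247) and Prc1 (0.0413), which bundles midzone microtubules, rose too. Both calls hung on single libraries, as Cenpf was lost without any of day 0 replicates 1, 2 and 4 and Prc1 in 10 of 18 fits.

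The remaining members were not called or not tested. Tpx2 (adjusted p = 0.0632), a spindle assembly factor gene, lay above day 0 in every day 7 library, whereas the kinesin genes Kif11 (0.458) and Kif23 (0.182) overlapped with day 0. Cenpe, a kinetochore motor gene, was not counted on day 0 and stood at 3.59 to 21.9 CPM on day 7, at least 3.39-fold higher. Ect2, which acts in cytokinesis, had a ratio of 12.7 (95% counting interval 3.94 to 65.1), and the condensin subunit gene Smc2 was at 0 to 11.8 CPM on day 0 and 0 to 23.9 CPM on day 7.

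Hmgb2 and Stmn1 were set apart because neither acts only in the cycle. Stmn1 encodes stathmin, which destabilises microtubules, and was at 1.49, 4.78, 0 and 3.94 CPM on day 0 and 126, 113, 97.7 and 108 CPM on day 7. Stmn1 rose without overlap (log2 fold change 5.28, SE 0.69, adjusted p = 4.6e-06). Hmgb2, a gene of a chromatin protein, was at 0, 7.17, 0 and 6.56 CPM on day 0 and 102, 102, 122 and 25.8 CPM on day 7. Replicates 1 and 3 of day 0 had no count, and day 7 replicate 4 was the lowest of its group. Hmgb2 rose (log2 fold change 4.52, SE 0.84, adjusted p = 0.000336).

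The balance between mitosis and replication was read from the counts of the 30 mitosis genes (the mitotic cyclins, kinases and APC/C genes with the chromosome, spindle and cytokinesis genes) as a share of these and the 14 replication genes. The share was 55.4, 33.8, 36.9 and 39.3% on day 0 and 64.4, 59.5, 61.1 and 64.7% on day 7. All day 7 libraries lay above day 0, where replicate 1 was the highest. The day 0 shares leaned on few genes. Anln held 26, 41, 24 and 42 of the 107, 76, 89 and 132 mitosis counts there. Of the 86, 149, 152 and 204 replication counts, Pcna held 30, 43, 44 and 31 and Mcm6 12, 25, 20 and 82. The share without these genes was not computed. On day 14 the share was 46.8, 49 and 61.9%, on day 21 62.3, 66.7, 44.2 and 68.1% and on day 28 46.2, 56.1 and 39.1%. These later days overlapped with both day 0 and day 7, except that day 28 lay below day 7. Its mean was 41.4 ± 9.63% (SD, n = 4) before injury and 62.4 ± 2.54% (SD, n = 4) on day 7. The exact (Clopper-Pearson) 95% interval of the lowest day 7 share was 56.5% to 62.5% and that of the highest day 0 share 48.1% to 62.6%, so these libraries could not be told apart by counting alone. On day 21, replicate 3 stood at 44.2%, below the other replicates, and this library also had the lowest Smc4 and Mki67 of its group.

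**Figure D5:**
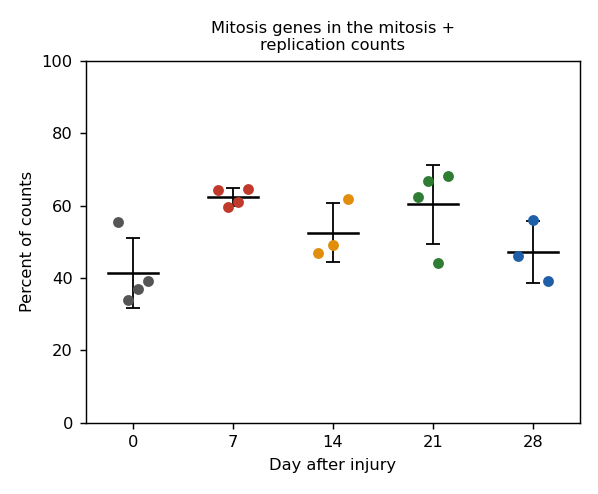
Counts of the 30 mitosis genes as a percentage of the counts of the mitosis and the 14 replication genes by day after injury, with 1 point per library, the mean (line) and the SD (bar). The 4 day 7 libraries lie close together at 59.5% to 64.7%, above the day 0 libraries at 33.8% to 55.4%.

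On day 14, 4 of the 48 genes rose against day 0 and none fell, where 4.8% of all genes tested rose and 1.42% fell, 6.22% together. All day 14 libraries lay above day 0 in 14 of the 48 genes and below in 1, Anln, against 10.7% and 6.79% of all genes tested. The 4 were Ccnd1, Stmn1 (log2 fold change 3.54, adjusted p = 0.00291), Ube2c (3.07, 0.0125) and Hmgb2 (2.93, 0.0457). Stmn1 was at 16, 44.1 and 39.1 CPM, Ube2c at 4.80, 22.9 and 19.6 CPM and Hmgb2 at 17.6, 52.9 and 17 CPM, all above day 0. The mean was higher than on day 0 in 43 of the 48 genes, and the median log2 fold change of the 42 tested was 1.39, beside 0.046 over all genes tested. Without day 14 replicate 2 or 3 the number of calls was 2. The Hmgb2 call was lost in 12 of the 18 fits that left out 1 library (adjusted p up to 0.351, without day 14 replicate 2) and the Ube2c call in 2 (up to 0.0988). Only Ube2c fell against day 7 (log2 fold change -2.52, adjusted p = 0.0329), in a comparison where 1.33% of all genes tested rose and 0.33% fell, 1.66% together, and this call was lost without any of the 3 day 14 libraries or of day 7 replicates 1, 2 and 3 (adjusted p up to 0.308, without day 14 replicate 1) and with either block. All day 14 libraries lay below day 7 in 24 of the 48 genes and above in 1, Ccnd2, against 7.59% and 6.34% of all genes tested.

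On day 21, 10 of the 48 genes rose against day 0 and 1 fell, beside 5.92% and 2.93% of all genes tested, 8.84% together. All day 21 libraries lay above day 0 in 8 genes and below in none, against 9.31% and 6.81% of all genes tested. Mitosis genes, which are 30 of the 48, made up 6 of the 10, and no replication gene rose, but a difference between the roles was not tested. The mitosis genes were Ube2c (log2 fold change 3.02, adjusted p = 0.00921), Ccna2 (3.14, 0.0284), Cenpa (2.83, 0.0275), Smc4 (2.00, 0.029), Racgap1 (at least 2.38-fold, 0.0269) and Nusap1 (at least 1.41-fold, 0.0317). Both D cyclins, Stmn1 (3.35, 0.00311) and Hmgb2 (2.78, 0.0399) made up the rest. Mcm4, a helicase subunit, fell from 4.47, 9.56, 19.4 and 31.5 CPM on day 0 to 0, 2.02, 1.64 and 4.65 CPM on day 21 (log2 fold change -3.03, SE 0.94, adjusted p = 0.0432). The groups overlapped at 1 library of each day, and the call was lost in 9 of the 18 fits that left out 1 library (adjusted p up to 0.138, without day 21 replicate 1) and with the label number as a block (0.0568).

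These day 21 calls rested on few libraries, and those of Ccnd1, Stmn1 and Ube2c alone held in every fit that left out 1 library. The number of calls was 3 without day 0 replicate 3, 4 without day 21 replicate 2, 5 without day 21 replicate 1, 6 without day 0 replicate 2 or day 21 replicate 4 and 7 without day 0 replicate 4. In a fit of days 0 and 21 alone it was 3, but that fit tested only 10 members, where the main fit tested 42. The sums on day 21 were 213, 157, 206 and 195 CPM for replication, within the day 0 range in every library, 105, 96.9, 54.3 and 128 CPM for the mitotic cyclins, kinases and APC/C genes and 246, 218, 108 and 288 CPM for the chromosome, spindle and cytokinesis genes. In both of the latter, 3 of the 4 libraries lay above day 0, and replicate 3 lay within its range.

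Against day 7, 13 of the 48 genes fell on day 21 and 1, Ccnd2, rose, where 3.23% of all genes tested fell and 4.03% rose, 7.26% together. All day 21 libraries lay below day 7 in 27 of the 48 genes and above in 1, against 9.18% and 7.75% of all genes tested. The 5 replication genes among them were Mcm4 (log2 fold change -4.23), Mcm3 (-3.20), Mcm5 (-2.96), Rrm1 (-1.95) and Pcna (-1.23). The 7 mitosis genes were Birc5 (-3.70), Cks1b (-3.78), Cdk1 (-3.22), Ube2c (-2.57), Cdc20 (-2.51), Aurkb and Prc1. For Aurkb and Prc1, with 1 and 2 counts on day 21, the ratios of day 21 to day 7 were 0.0269 (95% counting interval 0.000662 to 0.16) and 0.0319 (95% counting interval 0.00378 to 0.12). Stmn1 fell as well (-1.93). Leaving out any one of the day 7 replicates 1, 2 and 3 or of the 4 day 21 libraries gave 6 to 8 calls in place of 14, and the label number as a block gave 3. Of the 23 genes that passed the filter without the day 7 libraries, 7 fell and 1 rose.

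On day 28, 1 of the 48 genes, Ccnd1, rose and none fell against day 0, where 0.97% of all genes tested rose and 0.369% fell, 1.34% together. All day 28 libraries lay above day 0 in 2 genes, Ccnd1 and Ccnd2, and below in 1, Pcna, against 4.88% and 5.07% of all genes tested. Few calls with 3 libraries do not show that levels were alike. The median log2 fold change was 0.302 over the 23 genes that passed the filter without the day 7 libraries and -2.15 over the 19 that passed only with them, of which 9 had no count on day 28, so that their fitted values depend on the prior count. The mean of Smc4 was 39.6 CPM on day 28 beside 12.6 CPM on day 0 and that of Hmgb2 18.9 beside 3.43 CPM, and Mki67 had counts in 1 of the 3 day 28 libraries beside 3 of the 4 day 0 libraries. By the unadjusted p of edgeR, 10 of the 42 genes tested were under 0.05, 6 of them higher and the rest lower, and DESeq2 called 2 higher. The share of all genes tested under 0.05 was not computed. The summed replication level was 202, 142 and 157 CPM, that of the mitotic cyclins, kinases and APC/C genes 37.3, 41.4 and 27.2 CPM and that of the chromosome, spindle and cytokinesis genes 136, 141 and 73.5 CPM. All lay within the day 0 range, except that replicates 1 and 2 stood just above it in the last group, where the highest day 0 library was at 134 CPM.

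Against day 7, 25 of the 48 genes fell on day 28 and Ccnd2 rose, where 8.05% of all genes tested fell and 6.4% rose. All day 28 libraries lay below day 7 in 32 of the 48 genes and above in 1, against 14.4% and 9.74% of all genes tested. Of the 23 genes that passed the filter without the day 7 libraries, 9 fell and 1 rose. The mitotic cyclins, kinases and APC/C genes fell in 8 of 10 tested, the chromosome, spindle and cytokinesis genes in 9 of 14 and the replication genes in 7 of 14. Among those that passed the filter without the day 7 libraries, these counts were 3 of 5, 3 of 6 and 2 of 8. Ube2c was at 0, 0 and 1.60 CPM on day 28, 1 count in all, and its ratio to day 7 was 0.00575 (95% counting interval 0.000145 to 0.0324) (adjusted p = 2.75e-05). Cdc20, without a count on day 28, was at least 15.4-fold lower than on day 7 (adjusted p = 0.000458). Mki67 was at 7.18, 0 and 0 CPM and fell (log2 fold change -5.02, adjusted p = 0.000692). Stmn1 was at 10.1, 0 and 16 CPM and fell as well (-3.64, 0.000743). Without day 7 replicate 1 or 3 the number of calls was 17 or 16 in place of 26.

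Of the other members given in every library, some fell on day 28 against day 7 and some were not called. Pcna, at 38.8, 34.7 and 28.8 CPM, lay below day 7 in all libraries and fell (log2 fold change -1.64, adjusted p = 0.00893). All 3 values of Pcna also lay below the day 0 range, where it was not called (adjusted p = 0.552). Rrm1, at 15.8, 8.27 and 27.2 CPM, fell too (-2.06, 0.0241). Birc5, at 11.5, 16.5 and 1.60 CPM, fell (-3.28, 0.00735), and Cks2, at 8.62, 6.62 and 0 CPM, fell (-3.01, 0.03). The Rrm1 call was lost in 4 and the Cks2 call in 5 of the 18 fits that left out 1 library (adjusted p up to 0.0997, without day 28 replicate 2, and 0.0906, without day 28 replicate 3). Mcm6, at 67.5, 39.7 and 55.9 CPM, Mcm7, at 12.9, 23.1 and 0 CPM, Smc4, at 28.7, 69.5 and 20.8 CPM, Anln, at 43.1, 13.2 and 17.6 CPM, Cks1b, at 14.4, 33.1 and 1.60 CPM, and Hmgb2, at 18.7, 38 and 0 CPM, were not called against day 7 or day 0.

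Between day 7 and day 28 the genes described in full stood as follows. On day 14, Pcna was at 51.2, 79.4 and 67.8 CPM, Rrm1 at 38.4, 28.2 and 32.6, Mcm6 at 59.2, 79.4 and 32.6 and Mcm7 at 12.8, 28.2 and 10.4 CPM. On day 21 their values were 55.6, 20.2, 57.6 and 46.5 CPM for Pcna, 21.3, 22.2, 9.87 and 20.9 for Rrm1, 47.3, 58.5, 75.7 and 41.9 for Mcm6 and 8.28, 8.07, 8.22 and 16.3 CPM for Mcm7. On day 21 Mcm7 and Rrm1 lay below day 7 in every library, while Pcna and Mcm6 overlapped with it. Cdc20 was at 6.40, 15.9 and 10.4 CPM on day 14 and 13, 24.2, 9.87 and 2.33 CPM on day 21, and Ube2c at 18.9, 8.07, 13.2 and 20.9 CPM on day 21. Cks1b was at 4.80, 15.9 and 22.2 CPM on day 14 and 2.37, 4.04, 4.93 and 4.65 CPM on day 21, and Cks2 at 19.2, 26.5 and 10.4 and 14.2, 8.07, 11.5 and 20.9 CPM. All values of these 4 mitosis genes on days 14 and 21 lay below day 7. Mki67 was at 11.2, 38.8 and 33.9 CPM on day 14 and 27.2, 32.3, 16.4 and 32.6 CPM on day 21, and Birc5 at 14.4, 8.82 and 22.2 and 2.37, 10.1, 4.93 and 14 CPM. Smc4 was at 30.4, 31.8 and 54.8 and 63.9, 58.5, 16.4 and 62.8 CPM and Anln at 27.2, 31.8 and 26.1 and 31.9, 16.1, 13.2 and 53.5 CPM. Mki67 and Birc5 lay below day 7 in every library of these days, whereas Smc4 on day 21 and Anln on both days overlapped with it. Stmn1 was at 29.6, 24.2, 13.2 and 51.2 CPM and Hmgb2 at 27.2, 24.2, 16.4 and 37.2 CPM on day 21.

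The marker sums moved over these days too. Contractile smooth muscle markers summed to 9533 to 29350 CPM on day 14, 10820 to 26540 CPM on day 21 and 27330 to 35350 CPM on day 28, with 6, 8 and 1 of 12 lower than on day 0. Macrophage markers summed to 1363 to 3064, 1917 to 3621 and 834 to 1238 CPM, with 14, 14 and 3 of 15 tested higher than on day 0. Neutrophil markers summed to 12.8 to 228, 14 to 509.8 and 0 to 276 CPM, the highest value of day 21 and of day 28 coming from replicate 3 each time. Their part in the changes of the cell cycle genes was not tested.

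A further 137 genes of the cell cycle outside the 48 were listed by function, and 93 were tested. On day 7 against day 0, 29 rose and 1 fell, where 11.3% of all genes tested rose and 8.53% fell. How many of the 93 passed the filter only with the day 7 libraries was not counted. Other mitosis factors rose in 13 of 26 tested and other replication factors in 9 of 34, while of 18 tested genes of the E2F, RB and MuvB group 1, the transcription factor gene Foxm1 (log2 fold change 3.07, SE 0.85, adjusted p = 0.0108), rose and 1, the MuvB subunit gene Lin52, fell. Other G1 cyclins and kinases rose in 3 of 8, which were Cdk2, Cdk4 and Cdk7, and inhibitors of cyclin-dependent kinases in 3 of 7, which were Cdkn2a, Cdkn2c and Cdkn3. Neither count of the E2F, RB and MuvB group was above the share over all genes tested. Foxm1, Lin52 and these kinases and inhibitors were named after their values were seen. Over all 7 comparisons, the genes that rose with the smallest unadjusted p were, with day 7 against day 0 values unless stated, Cdca3, a mitotic entry factor gene, and the kinesin gene Kif22, both without a count on day 0 (at least 9.64-fold and 8.43-fold higher), Incenp of the chromosomal passenger complex (log2 fold change 3.74, SE 0.72, adjusted p = 0.000515), the kinetochore gene Spc24 (log2 fold change 2.72, SE 0.56, adjusted p = 0.00298 on day 21) and Uhrf1, a gene that maintains DNA methylation at replication, which had a day 7 to day 0 ratio of 104 (95% counting interval 18.1 to 4150).

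On day 28 against day 7, 21 of these 93 genes fell and 3, Cdkn1b, Lin52 and Pttg1, rose, named after their values were seen. Of all genes tested, 8.05% fell and 6.4% rose in that comparison. Among those that fell with the smallest unadjusted p over all 7 comparisons, the DNA ligase gene Lig1 fell (log2 fold change -3.15, SE 0.57, adjusted p = 0.000596). Orc3, a subunit of the origin recognition complex, had 1 count on day 28 and a ratio to day 7 of 0.0264 (95% counting interval 0.000654 to 0.155), and the lamin B1 gene Lmnb1, also with 1 count, a ratio of 0.00867 (95% counting interval 0.000218 to 0.0492). Cdca8, of the chromosomal passenger complex, was not counted on day 28, at least 8.36-fold lower. Cdca3 was not counted on day 28 either, at least 8.46-fold lower.

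Some values carry a limit from the annotation. The exons of 11 of the 48 genes overlap those of another gene that has counts, which are Ccnd1, Mcm7, Tk1, Ccna2, Cdk1, Cdc20, Ube2c, Aurka, Kif20a, Nusap1 and Prc1, so reads of these partners could have entered the values. Many members held few counts, and a difference that was not called is not shown to be absent at this depth.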

How the data were processed

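MACE libraries were prepared by the authors from laser-captured carotid sections and read on a NextSeq500. The deposited values are estimated counts per gene, rounded to whole numbers, which the authors made after removing PCR duplicates by molecular identifier and trimming, with Salmon 1.9.0 on the mm39 transcriptome. A further table holds counts that the authors normalised with DESeq2 1.36.0 and was not used. The annotation release and the use of strand are not given in the sources used here.

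Groups were taken from the day on the labels. Genes were kept with filterByExpr by day (10312 of 35655), scaled by TMM and tested with the quasi-likelihood test of edgeR 4.0.16 in R 4.3.3, with 1 fit over 18 libraries. P-values were adjusted by Benjamini-Hochberg over all genes tested, and an adjusted p under 0.05 counted as called. CPM is a count divided by the TMM-scaled total of the genes tested, and SE is that of the log2 fold change. A gene without a count in a group was set to 3 counts per library for a bound. For a group total of 1 to 3 counts, the ratio is given with a 95% counting interval. Days 7, 14, 21 and 28 were compared with the same day 0 libraries, and days 14, 21 and 28 with the same day 7 libraries, so these comparisons are not independent of each other. Intervals cover counting error only.

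The 48 members, the other gene lists and the tests were chosen with earlier results of these data known. Values in every library are given for both D cyclins, Hmgb2, Stmn1 and the 4 members of each other role with the highest mean CPM, while further called members are given mainly by range and the others by name. Of the other cell cycle genes, the 5 with the smallest unadjusted p in each direction over all 7 comparisons were named. On simulated counts for day 7 against day 0, with 10312 genes, 13% of 2-fold and 64% of 4-fold changes were recovered. Only a small part of these genes was changed, on day 7 alone, and these shares do not cover the other comparisons.

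Alternatives were DESeq2 1.42.0, library totals without TMM, other filters and thresholds, thinned counts, fits of 2 days alone, replicate blocks, and leaving out each library. The replicate numbers follow the accession order, and no pairing by them is stated in the sources used here. Of the numbers on the labels, 3 are shared by a day 0 and a day 21 library, and deviations of these 3 pairs correlated at -0.0067 to 0.055. Promoters were those of RefSeq (GRCm38.p6), placed on GRCm39 by exact match. Some marker results are not reported here.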

Additional observations from a re-analysis of the deposited data

Results flagged for a closer look

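Of 139 groups of 4 libraries checked, 19 held a library that stood apart from its group, where chance gives about 1 in 20 for values that vary smoothly. In 8 of the 19 all other libraries of the group were at 0, so that any count stood apart, and the number is not to be set against that rate. On day 0, replicate 4 stood high, with a summed level of mitotic cyclins, kinases and APC/C genes of 64.3 CPM (others 21.5 to 26.8), Mcm6 at 107.6 CPM, Rrm2 and Ccna2 at 6.56 CPM each, Ccnb1 at 5.25 CPM and Plk1 at 2.62 CPM, the last 4 at 0 in the other libraries of that day. Replicate 1 of day 0 stood high in Birc5, at 11.9 CPM, and in Cdk1, at 23.8 CPM, and replicate 3 in Aurkb, at 5.96 CPM, Cdt1, at 4.47 CPM, and Kif23, at 13.4 CPM.

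On day 7, replicate 4 stood low in the sum of Hmgb2 and Stmn1, at 134 CPM (others 215.6 to 227.9), and replicate 1 stood low in Mcm3, at 39.2 CPM. On day 21, replicate 3 stood low in Rrm1, at 9.87 CPM, and in Smc4, at 16.4 CPM, and alone had counts of Prc1, at 3.29 CPM. Replicate 4 of day 21 stood high in Mcm7, at 16.3 CPM, and Aurkb, at 2.33 CPM, and replicate 1 in Mcm5, at 16.6 CPM.

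Ccnd2 differed in direction between days. Against day 0 its log2 fold change was -0.92 on day 7 and 0.82 on day 21, a difference of 1.74 (edgeR, adjusted p = 7.77e-05, day 21 against day 7). The cause of none of these values was tested.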

How the results depend on the processing

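No called result changed direction under any alternative run. Changes of direction among results that were called in neither fit were not counted. The members gave 88 called results over the 7 comparisons. Of these, 76 could be tested in all 18 fits that left out 1 library, and 47 of the 76 were called in every one. With the named genes outside the 48 included, 269 of 2702 alternative values of called results were no longer called, and 76 of 4631 of uncalled results were called. On simulated counts for day 7 against day 0, 13% of 2-fold changes were recovered. The part of the genes changed there was far smaller than the 19.8% called in the data, which makes the adjusted p stricter. Differences of that size could thus be missed with these libraries, but how many cannot be read from it.

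Against day 0, leaving out 1 library gave 23 to 33 members called on day 7, 2 to 6 on day 14, 3 to 11 on day 21 and 0 to 2 on day 28. Against day 7 it gave 0 to 3 on day 14, 6 to 15 on day 21 and 16 to 29 on day 28. For the other cell cycle genes it gave 18 to 39 on day 7 against day 0 and 12 to 29 on day 28 against day 7. The calls on day 28 against day 0 fell to 0 without day 0 replicate 4 or day 28 replicate 3, and those on day 14 against day 7 to 0 without day 14 replicate 1. The lowest counts for the other genes came without day 7 replicate 3.

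At an adjusted p under 0.01, calls against day 0 were 2 on day 14, 3 on day 21 and 0 on day 28, and against day 7 they were 1, 6 and 16. For the other genes they were 15 on day 7 and 9 on day 28 against day 7. At 0.1, calls against day 0 were 8 on day 14 and 2 on day 28. DESeq2 called 2 members on day 28 against day 0, 1 on day 14 against day 7, 51 other genes on day 7 and 42 on day 28 against day 7. On day 14 against day 7 it gave an adjusted p for only 4 of the 48 members. Library totals without TMM gave 2 on day 28 against day 0, and no filter gave 3 there and 5 on day 14 against day 7. Thinned counts gave 19 other genes on day 7. With only the 2 days compared in the fit, calls were 2 on day 14 and 3 on day 21 against day 0, 7 and 22 on days 14 and 21 against day 7, and 10 other genes on day 28 against day 7. Such fits tested fewer members than the 42 of the main fit. They tested 15 and 10 on days 14 and 21 against day 0 and 37 on day 14 against day 7.

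With a replicate block on the accession-order number, members called were 27 on day 7 against day 0, and 1 and 9 on days 14 and 21 against day 7. Correlations of same-numbered deviations ran from -0.13 to 0.2 over 33 pairs, which cannot show whether such libraries share a batch or an animal. With the label number as a block, calls were 17, 1 and 0 on days 7, 14 and 28 against day 0, 1 and 3 on days 14 and 21 against day 7, and 7 other genes on day 7. In that fit days 7, 14 and 28 met day 0 directly only through day 0 replicate 1, and day 21 only through day 21 replicate 2. The replication sum without Pcna was 147.9 CPM on day 21 and 133 CPM on day 28, and the chromosome, spindle and cytokinesis sum without Smc4 77.2 CPM on day 28. The cause of these shifts was not tested.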
